A study of Mus musculus with 2 samples.

Results

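The genes for 6 subunits of the NMDA receptor (Grin1, Grin2a, Grin2b, Grin2c, Grin2d and Grin3a) were followed across the nuclei of adult mouse hippocampus and embryonic mouse brain. They were chosen by symbol from the 32285 genes counted in each library, and all 6 were found in both. Slide-tags is a method that marks nuclei inside a frozen section with spatial barcodes before standard droplet single-nucleus RNA sequencing, here with the 10x 3′ v3.1 chemistry. There was 1 library per tissue. The adult library came from a hippocampal punch of a coronal section from a male C57BL/6J mouse aged 56 days, perfused under anaesthesia, and the embryonic library from the brain in a sagittal section of a whole C57BL/6J embryo at day 14 (E14). Neither animal carried a named transgene, deletion or treatment, and only gene counts, not nuclear positions, were analysed here. Tissue, age, animal, library and software version cannot be told apart between the libraries, so every comparison between them is a description with no test, and intervals cover counting error only.

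NMDA receptors are glutamate-gated cation channels that need glutamate, a co-agonist (glycine or D-serine) and relief of a magnesium block to pass calcium. They are tetramers in which the obligatory GluN1 subunit, encoded by Grin1, joins GluN2 subunits (Grin2a to Grin2d), which bind glutamate and set channel kinetics, or GluN3 subunits (Grin3a and Grin3b), which lower calcium permeability. In the forebrain, receptors rich in GluN2B prevail in early life and GluN2A joins later, a textbook switch in subunit composition. GluN2C and GluN2D, which give weaker magnesium block, are known from restricted sets of cells such as cerebellar granule cells, thalamus and interneurons.

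All 6 genes lie on the minus strand in the GRCm38 (mm10) build, with positions from GENCODE vM21. Grin2a (chromosome 16, 9567898 to 9995560) and Grin2b (chromosome 6, 135713233 to 136173511) are long genes that span 428 and 460.3 kb, of which 17.9 and 24.8 kb are exonic. Grin3a (chromosome 4, 49661611 to 49845744) spans 184 kb, Grin2d (chromosome 7, 45831883 to 45878378) 46.5 kb, Grin1 (chromosome 2, 25291181 to 25319187) 28.0 kb and Grin2c (chromosome 11, 115249169 to 115267243) 18.1 kb. Intronic reads were counted, so a long gene collects more UMIs (unique molecular identifiers, here counted RNA molecules) than a short gene with as many transcripts. A level is given as a gene's count per 1000000 UMIs of the class (CPM). Levels are therefore compared between classes for each gene, and between genes only per kb of span. An antisense gene, Grin1os, overlaps Grin1, Kdelr1 overlaps Grin2d on the other strand, and Ppp3r2 lies inside Grin3a on the same strand, with 3 adult and 34 E14 UMIs of its own.

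After filtering, 1609 adult nuclei with 15346746 UMIs (median 6607 per nucleus) and 9036 E14 nuclei with 58923882 UMIs (median 4204) remained, and 1 barcode sequence occurred in both libraries. Nuclei were put into classes by their UMIs of fixed marker lists that hold none of the 6 genes. This gave 11 adult classes and 17 E14 classes, while 15.9% of adult and 44.8% of E14 nuclei joined no class. Each adult class had at least 6 of its 8 markers detected. Some named E14 classes had fewer, with 4 of 8 in Lhx6 interneuron-like nuclei. Hypothalamic-like nuclei and GABAergic nuclei without Dlx genes had 3 of 8 each. The latter are named after a marker list that holds no Dlx gene, and their Dlx levels are not given. The adult class of the microglial list is left unnamed out of caution, as its median of 2056 UMIs was low against the library's 6607. Depth was not used to withhold other names, as for oligodendrocyte-like (2899) and E14 erythroid-like nuclei (1007). All 8 markers of the microglial list were detected in that class. None was among its 10 leading genes, but this held for the named dentate granule-like and CA1-like classes too. The E14 class of the striatal list is also left unnamed, with 2 of 8 markers detected. Neurons were the 791 adult nuclei of 6 classes and the 3391 E14 nuclei of 8 classes, with medians of 13027 and 5447 UMIs.

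Among adult neurons, Grin2a and Grin2b UMIs were close to balance, whereas Grin2b prevailed in E14 neurons. Adult neurons held 34830 Grin2a and 28665 Grin2b UMIs, a ratio of 1.22 (95% counting interval 1.20 to 1.23). E14 neurons held 1857 Grin2a and 31491 Grin2b UMIs, a ratio of 0.0590 (0.0562 to 0.0618). Per kb of span, the ratios were 1.31 and 0.0635. The gap came mainly from Grin2a, whose level was 2968 CPM in adult and 68.7 in E14 neurons, 43.2-fold apart (41.2 to 45.3), against 2443 and 1165 CPM and 2.10-fold (2.06 to 2.13) for Grin2b. With classes taken from Louvain clusters, in which only 4 of the 8 E14 neuronal classes were found, the E14 ratio was 0.0395 and the Grin2a difference 64.4-fold. Free RNA can add UMIs to every droplet: classes that should lack these genes held 60.2 (Grin2a) and 145 (Grin2b) CPM in the adult library (oligodendrocyte-like, endothelial-like and the class of the microglial list) and 27.6 and 404 at E14 (endothelial-like, fibroblast- or mesenchyme-like and erythroid-like). With those levels subtracted, the neuronal ratios were 1.27 and 0.0540. Of the 85 adult background Grin2a UMIs, 31 came from 1 nucleus, and the level without it was 38.6 CPM.

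**Figure D1:**
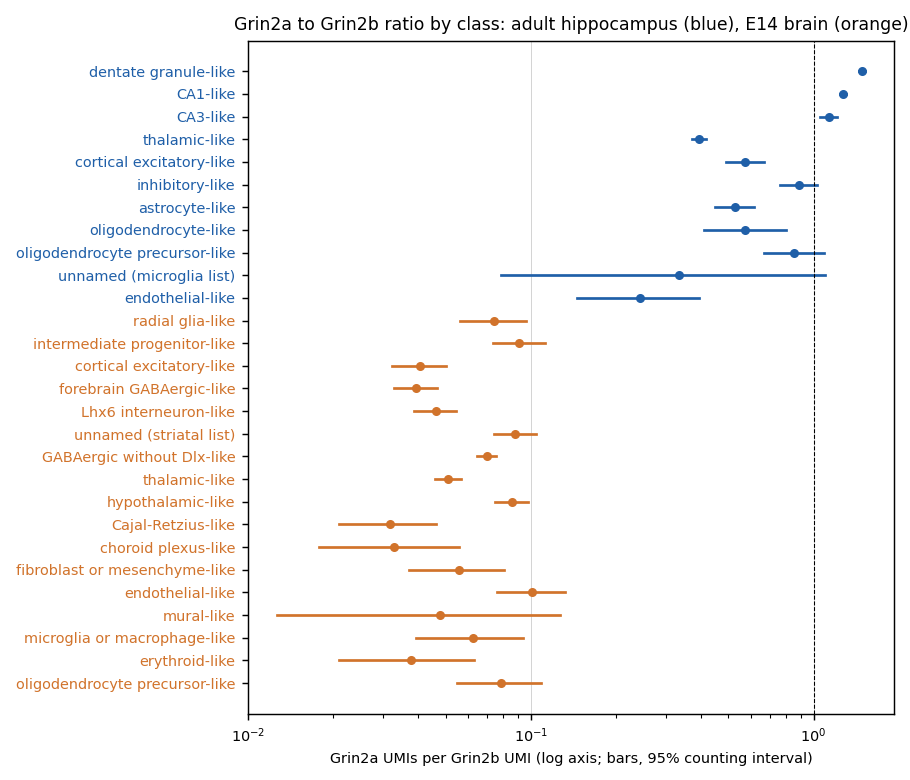
Grin2a UMIs per Grin2b UMI (log axis) in each adult class (blue) and E14 class (orange), with points for the ratio of summed UMIs and bars for the 95% counting interval. Dentate granule-like, CA1-like and CA3-like nuclei sit above 1, the other adult classes below it or with intervals across it, and every E14 class is at 0.101 or lower.

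The adult ratio differed among neuronal classes. Dentate granule-like nuclei, the granule cells of the hippocampal input region, had the highest ratio, 1.48 (1.45 to 1.52), from 17463 Grin2a and 11768 Grin2b UMIs. CA1-like pyramidal nuclei followed at 1.27 (1.24 to 1.30) and CA3-like nuclei at 1.13 (1.05 to 1.21). These 3 hippocampal classes were ordered without overlap of their neighbours' counting intervals, which leave out the spread between nuclei. Without 1 of the 36 CA3-like nuclei, the CA3-like ratio was 1.09. The ratio was 0.887 (0.763 to 1.03) in inhibitory-like, 0.573 (0.489 to 0.670) in cortical excitatory-like and 0.393 (0.370 to 0.417) in thalamic-like nuclei. Of the 331 Grin2a UMIs in inhibitory-like nuclei, 120 came from 1 nucleus, and the ratio without it was 0.598.

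Within E14, the ratio stayed between 0.0318 and 0.101 in all 17 classes. Among E14 neuronal classes it was lowest in Cajal-Retzius-like nuclei, the early-born reelin-producing neurons, at 0.0318 (0.0210 to 0.0463), forebrain GABAergic-like at 0.0392 and cortical excitatory-like nuclei at 0.0404, whose intervals overlapped. It was highest in hypothalamic-like nuclei (0.0857, 0.0749 to 0.0977) and the class of the striatal list (0.0880, 0.0742 to 0.104), which lay above the intervals of the lowest 3. The 3 background classes together had a ratio of 0.0683 (0.0555 to 0.0834), so a class near that value cannot be set apart from free RNA by the ratio alone.

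The same UMIs were also viewed nucleus by nucleus. Among nuclei with at least 10 UMIs of both genes together, Grin2a exceeded Grin2b in 473 of 717 adult neurons and in 10 of 1240 E14 neurons. No Grin2a UMI was counted in 9 of the adult and 814 of the E14 nuclei. E14 nuclei passed the limit of 10 UMIs mainly through Grin2b, and E14 neurons were shallower (median 5447 against 13027 UMIs). A nucleus with few UMIs of both genes can lack Grin2a by counting alone, so these counts are no separate support. The Grin2a share of both genes had a median of 59.3% in dentate granule-like nuclei (10th to 90th percentile 44.4 to 70.9), 54.1% in CA1-like (36.3 to 67.6) and 26.9% in thalamic-like nuclei (13.7 to 40.1). Only 2 of 70 thalamic-like nuclei held more Grin2a than Grin2b, against 313 of 399 dentate granule-like nuclei. The spread was wider than drawing each nucleus's UMIs at its class share would give, with a variance 3.04 times that expectation in dentate granule-like, 6.50 times in CA1-like and 17.1 times in inhibitory-like nuclei.

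**Figure D2:**
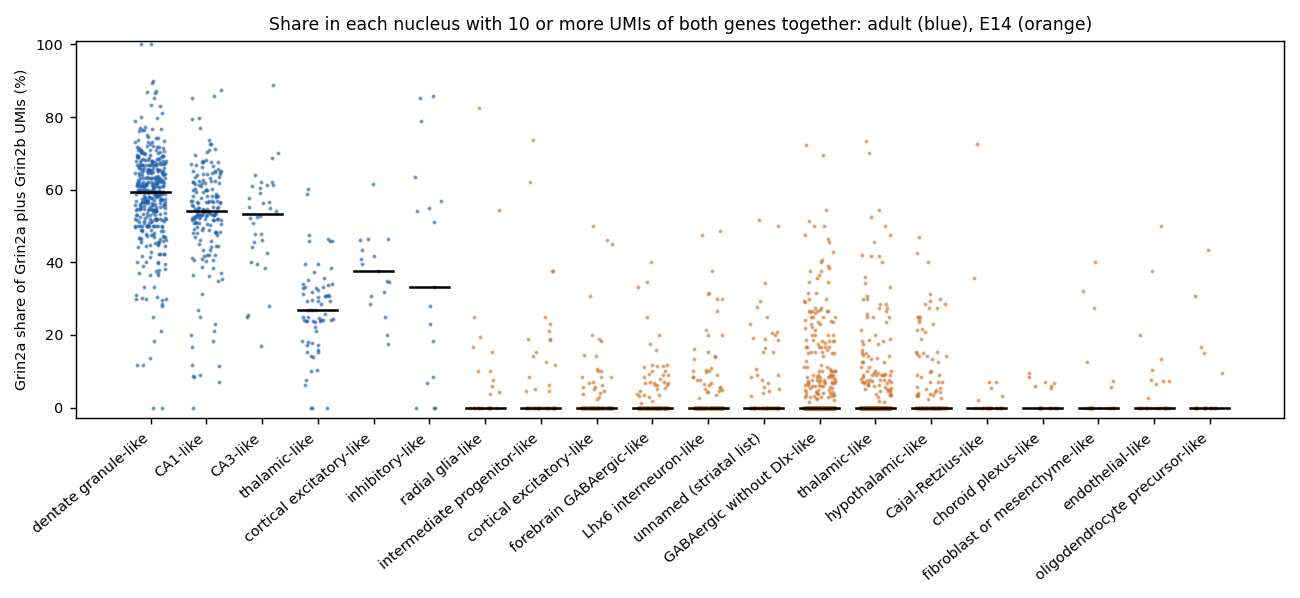
Share of Grin2a among Grin2a plus Grin2b UMIs (percent) in each nucleus with at least 10 such UMIs, for classes with 15 or more of these nuclei, adult in blue and E14 in orange, black lines marking medians. Adult hippocampal nuclei gather around 50 to 60%, thalamic-like nuclei around 27%, and most E14 nuclei sit at 0.

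Grin1 encodes the subunit every NMDA receptor needs. Its level in the adult library was 487 CPM (464 to 511) in CA1-like, 399.6 (355 to 449) in CA3-like, 389 (373 to 406) in dentate granule-like, 377 (312 to 451) in cortical excitatory-like, 336 (307 to 367) in thalamic-like and 284 (223 to 357) in inhibitory-like nuclei. CA1-like nuclei stood above the other neuronal classes beyond counting error, while the CA3-like, dentate granule-like and cortical excitatory-like intervals overlapped. Adult glial and vascular classes were far below neurons, from 10.3 in the class of the microglial list to 89.7 in oligodendrocyte precursor-like nuclei. At E14, neuronal classes ranged from 23.0 (17.2 to 30.2) in cortical excitatory-like nuclei to 58.5 (46.5 to 72.7) in the class of the striatal list, with 58.3 in GABAergic nuclei without Dlx genes and 57.1 in thalamic-like nuclei. The background classes held 15.6 (11.9 to 20.2), so Grin1 in E14 cortical excitatory-like nuclei was not above background beyond counting error. Compared per kb of span in CA1-like nuclei, Grin1 reached 17.4 CPM per kb, Grin2a 9.13 and Grin2b 6.70. Priming on poly(A) can also start at A-rich stretches in introns, and per run of 10 or more A in the transcribed strand the order became Grin2a (186), Grin1 (122) and Grin2b (90.7). The order of Grin1 and Grin2a therefore depends on the length measure.

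Shares of nuclei were compared after drawing 1000 UMIs from each nucleus, to remove depth. At that depth Grin1 was counted in 34.2% of adult neurons (30.8 to 37.7; 90.1% undrawn) and 4.0% of E14 neurons (3.36 to 4.72; 25.6% undrawn). The background classes gave 0.601% in the adult library and 1.93% at E14. The drawn shares of Grin2a were 83.7% (80.9 to 86.2; 93.7% undrawn) in adult and 4.87% (4.16 to 5.66; 17.2% undrawn) in E14 neurons, beside background shares of 3.30% and 2.17%. Grin2b was counted in 88.5% (86.0 to 90.7; 98.5% undrawn) and 61.6% (60.0 to 63.3; 85.0% undrawn), beside 9.01% and 17.3%. The draw left out 25 adult and 64 E14 neurons with fewer UMIs, and median depth in the background classes was 2920 and 3843 UMIs.

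**Figure D3:**
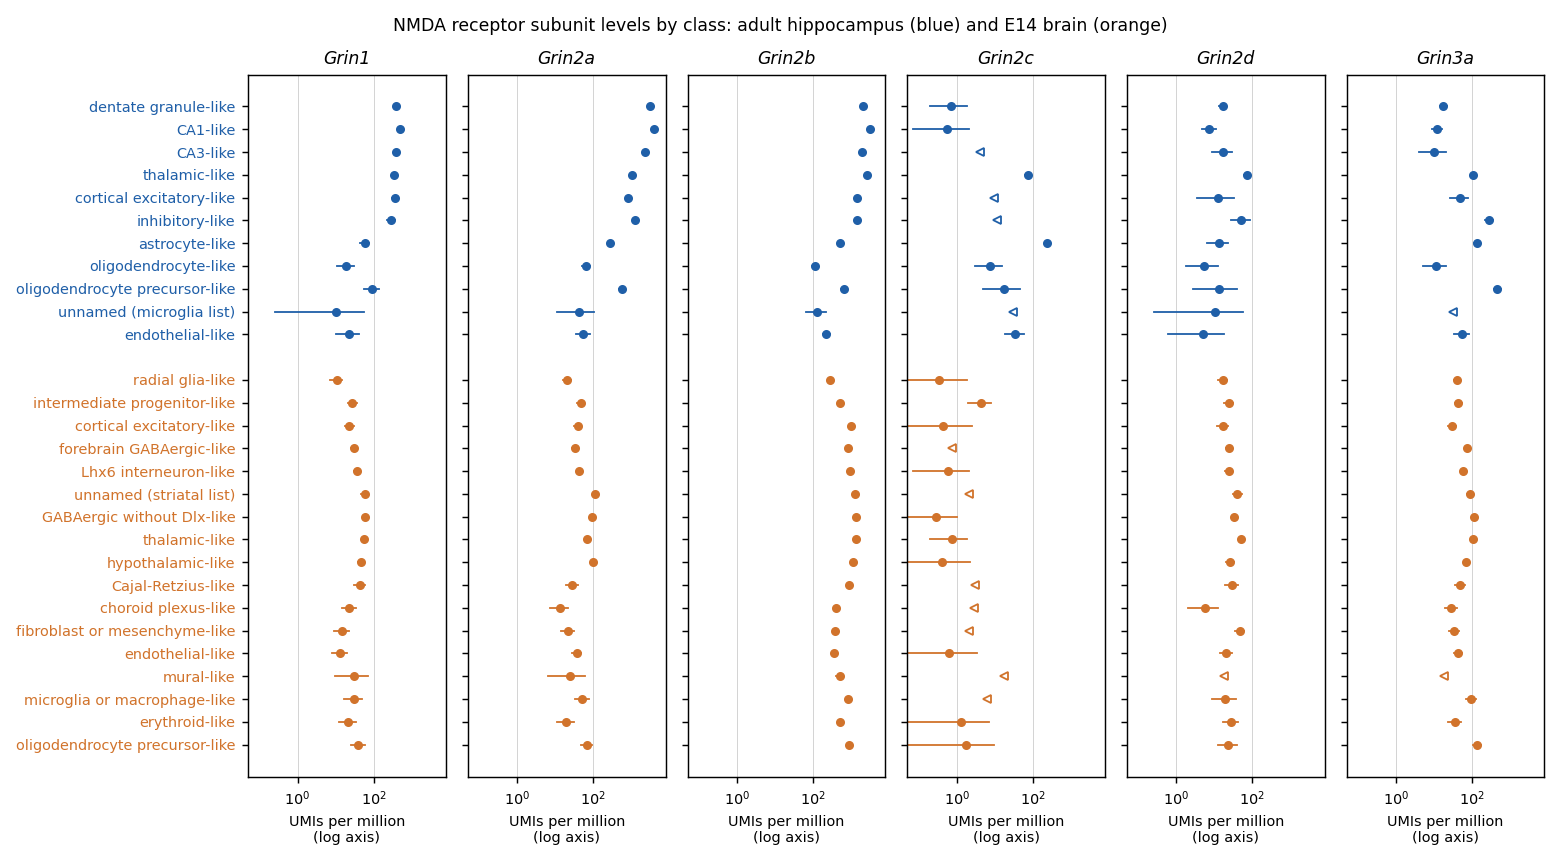
CPM (log axis) of each subunit gene in adult classes (blue) and E14 classes (orange). Points are summed UMIs, bars the 95% counting interval (bars that reach the left edge go on below it), and open triangles the level of 3 UMIs where none was counted. Grin2a separates the adult from the E14 neuronal classes, Grin2c stands out in astrocyte-like and thalamic-like nuclei, and Grin3a peaks in adult oligodendrocyte precursor-like nuclei.

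Grin2a, whose product joins the mature receptor, was highest in CA1-like nuclei at 3906 CPM (3841 to 3973), followed by dentate granule-like at 3169 (3122 to 3216) and CA3-like nuclei at 2246 (2137 to 2358). Inhibitory-like nuclei had 1271 (883 without the nucleus named above), thalamic-like 1061 (1009 to 1116) and cortical excitatory-like nuclei 808 (712 to 913). In the 171 CA1-like nuclei with at least 5000 UMIs, the level ran from 307 through a median of 3862 to 8496 CPM, and none was at 0. In the 67 such thalamic-like nuclei it ran from 0 to 2937 with a median of 1008. At E14 the highest levels were 113 (96.4 to 133) in the class of the striatal list, 97.5 (85.6 to 111) in hypothalamic-like and 95 (88.1 to 102) in GABAergic nuclei without Dlx genes, 3 classes whose intervals overlapped. E14 cortical excitatory-like (39.4, 31.6 to 48.5) and forebrain GABAergic-like nuclei (33.7, 28.2 to 39.9) were close to the background classes (27.6, 22.5 to 33.4).

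Grin2b, the partner that prevails in young neurons, was high in both libraries. In the adult library it was 3083 CPM (3025 to 3142) in CA1-like, 2699 (2615 to 2785) in thalamic-like, 2135 (2097 to 2174) in dentate granule-like, 1988 (1886 to 2094) in CA3-like, 1432 (1290 to 1585) in inhibitory-like and 1410 (1282 to 1547) in cortical excitatory-like nuclei. Thalamic-like nuclei thus came next after CA1-like nuclei for Grin2b, but for Grin2a they lay below all 3 hippocampal classes. E14 thalamic-like nuclei (1376, 1345 to 1408) and GABAergic nuclei without Dlx genes (1363, 1337 to 1391) had the highest named E14 levels and did not differ beyond counting error. Lower levels were found in cortical excitatory-like (976), Lhx6 interneuron-like (938), Cajal-Retzius-like (889) and forebrain GABAergic-like nuclei (859). Among progenitors, radial glia-like nuclei held 280.2 (262 to 299.8), which was not above background. The endothelial-like (368), fibroblast- or mesenchyme-like (384), choroid plexus-like (401) and erythroid-like (511) classes were higher. The fibroblast- or mesenchyme-like level moved to 219 with each nucleus weighted the same and to 620.5 with classes by clusters. Intermediate progenitor-like nuclei held 514 (484 to 546), above the pooled background of 404 (384 to 424) but no higher than the erythroid-like class. E14 cortical excitatory-like nuclei varied widely in Grin2b, with 30 of 162 nuclei of at least 5000 UMIs at 0, a median of 863 and a highest value of 3629 CPM.

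Grin2c, whose product gives receptors with weak magnesium block, was counted mainly in 2 adult classes, astrocyte-like and thalamic-like. Astrocyte-like nuclei held 205 of the 351 Grin2c UMIs, a level of 241 CPM (209 to 276), and thalamic-like nuclei 110, a level of 76.4 (62.8 to 92.1). CA1-like nuclei held 2 UMIs and dentate granule-like nuclei 4, while none was counted in CA3-like, cortical excitatory-like or inhibitory-like nuclei, which at 3 UMIs allows up to 4.19, 9.51 and 11.5 CPM. The background classes had 14.9 (9.21 to 22.7), and 7 of the 14 UMIs in endothelial-like nuclei came from 1 nucleus. After drawing 1000 UMIs, Grin2c was counted in 19.1% of astrocyte-like (12.9 to 26.7; 50.6% undrawn), 12.2% of thalamic-like (6.01 to 21.3; 52.7% undrawn) and 0.601% of background nuclei (2.76% undrawn). In the 70 astrocyte-like nuclei of at least 5000 UMIs, the median was 203 CPM and 16 were at 0. At E14 only 33 Grin2c UMIs were counted among 9036 nuclei, 9 of them in intermediate progenitor-like nuclei (4.30 CPM, 1.97 to 8.16).

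Grin2d was highest in thalamic-like nuclei in both libraries, at 73.6 CPM (60.3 to 89.0) in the adult and 50.6 (44.8 to 57.0) at E14. Adult inhibitory-like nuclei followed at 49.9 (26.6 to 85.3, from 13 UMIs, of which 3 were in 1 nucleus, and 40.4 without it), with an interval that overlapped the thalamic-like value, then CA3-like at 16.8, dentate granule-like at 16.5 (13.3 to 20.3) and CA1-like nuclei at 7.44 (4.86 to 10.9). At E14 the fibroblast- or mesenchyme-like class held 46.2 (35.7 to 58.9), as high as the thalamic-like class, while choroid plexus-like (5.65, 2.07 to 12.3) and radial glia-like nuclei (16.4, 12.1 to 21.7) were lower. The non-neuronal classes thus differed among themselves beyond counting error, and the E14 neuronal level of 32.4 (30.3 to 34.7) equalled that of the 3 background classes (31.3, 25.9 to 37.5) within counting error.

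Grin3a, which encodes the GluN3A subunit, was highest outside the principal neurons. Adult oligodendrocyte precursor-like nuclei held 466 CPM (381 to 565), with a UMI in 24 of 32 nuclei (75%), and inhibitory-like nuclei 284 (223 to 357). Astrocyte-like nuclei had 135 (112 to 162) and thalamic-like nuclei 109 (92.7 to 127), with overlapping intervals, followed by cortical excitatory-like nuclei at 47.5. The 3 hippocampal principal classes lay between 9.78 in CA3-like and 17.6 in dentate granule-like nuclei, beside 22.7 (15.5 to 32.0) in the background classes. Of the 32 background UMIs, 14 came from 1 nucleus of 19213 UMIs, and the background level without it was 12.9 (7.66 to 20.4). After drawing 1000 UMIs, Grin3a was counted in 32.3% of adult oligodendrocyte precursor-like nuclei (16.7 to 51.4) against 0.901% of background nuclei (0.186 to 2.61; 3.31% undrawn). The E14 levels were again highest in oligodendrocyte precursor-like nuclei (134, 106 to 168), then GABAergic nuclei without Dlx genes (110.2, 103 to 118) and thalamic-like nuclei (106, 97.9 to 115), 3 classes whose intervals overlapped. They were lowest among neurons in cortical excitatory-like nuclei (29.2, 22.6 to 37.2), below the E14 background of 37.9 (32.0 to 44.7).

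Adult glial levels of the other subunits rested partly on few nuclei. In oligodendrocyte precursor-like nuclei, 105 of 126 Grin2a UMIs, 13 of 20 Grin1 UMIs and 59 of 148 Grin2b UMIs came from 1 nucleus of 37018 UMIs. Without it Grin2a was 113 in place of 565 CPM. Grin3a in these nuclei rested less on 1 nucleus, since the highest held 10 of 104 UMIs and the level without it was 449.8. Astrocyte-like nuclei held 528 Grin2b (480.0 to 579) and 277 Grin2a CPM (207 without its top nucleus), above the background classes. The same astrocyte-like nuclei held 2556 CPM of the neuronal kinase gene Camk2a, against 1246 in CA1-like and 343 in oligodendrocyte-like nuclei, and the part of RNA from neighbouring neurons in these values was not tested. At E14, Grin2b in the microglia- or macrophage-like class was 829.7 CPM with all 69 nuclei and 398 with the 54 nuclei that remained without high doublet scores.

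Folds between neuronal sets were read against all genes with at least 50 UMIs in both sets together. Between adult and E14 neurons, 4 of 6 members were at least 2-fold higher in the adult, beside 15.8% of 16169 genes, and 1 was at least 2-fold lower, beside 23.9%. The higher members were Grin2a (43.2-fold, with 111 genes showing a larger fold), Grin2c (26.7-fold, 14 to 57.2, from 116 and 10 UMIs, of which 110 were thalamic-like), Grin1 (8.75-fold, 8.22 to 9.31) and Grin2b (2.10-fold). Grin3a was lower at 33.4 against 84.1 CPM, 2.52-fold, and with clusters as classes the adult to E14 ratio was 0.633 in place of 0.397, short of 2-fold. Grin2d was 21.5 against 32.4 CPM, under 2-fold. The members' median log2 difference was 2.10, beside -0.19 over all genes tested.

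**Figure D4:**
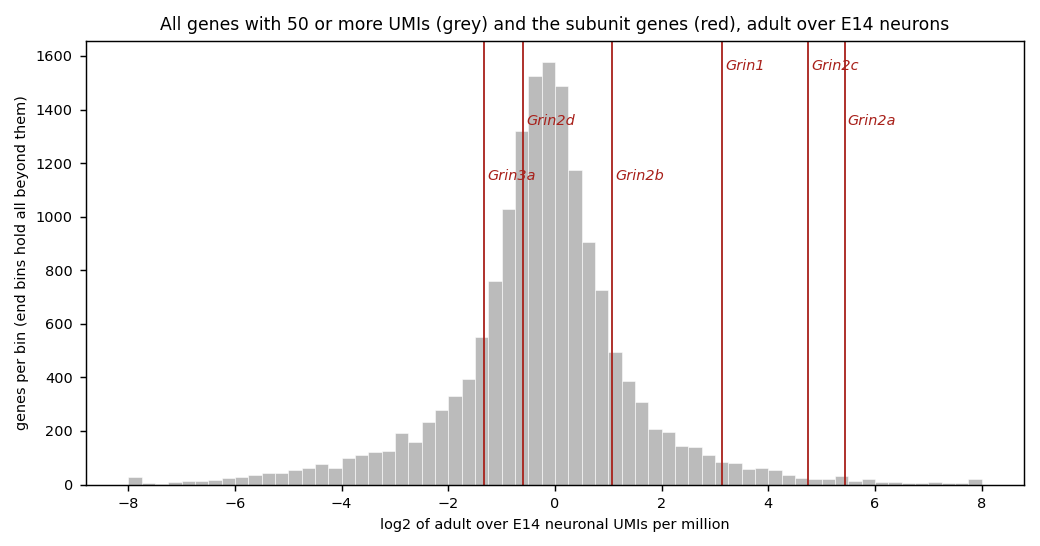
Distribution of log2 differences between adult and E14 neuronal levels over 16169 genes (grey bars, genes per bin of 0.25) with the 6 subunit genes as red lines. Grin2a, Grin2c and Grin1 lie in the right tail, at 5.43, 4.74 and 3.13, Grin2b at 1.07, and Grin2d and Grin3a left of 0.

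In closer pairs of classes, Grin1 and Grin2a were at least 2-fold higher in the adult library each time, while Grin3a differed in direction. Adult CA1-like and cortical excitatory-like nuclei together, set against E14 cortical excitatory-like nuclei, had 3 of 5 members with enough UMIs at least 2-fold higher (17.7% of all genes) and 1 at least 2-fold lower (21.3%). Grin2a was 3650 against 39.4 CPM (92.7-fold, 75.3 to 115), Grin1 478 against 23.0 (20.8-fold) and Grin2b 2944 against 976 (3.02-fold), with Grin2d lower at 7.88 against 16.8. Grin3a was 15.0 against 29.2 there, short of 2-fold. Both ratios lay near the 2-fold limit, at 0.468 for Grin2d (0.502 without 1 E14 nucleus with 3 UMIs) and 0.512 for Grin3a (0.471 without 1 adult nucleus with 5). The adult set held 3493224 CA1-like and 315618 cortical excitatory-like UMIs, so region differed along with age. The 19 adult cortical excitatory-like nuclei alone held 808 Grin2a, 377 Grin1 and 1410 Grin2b CPM. Their Grin3a level was 47.5 (26.6 to 78.4), above the E14 level but with overlapping intervals. Adult inhibitory-like and E14 Lhx6 interneuron-like nuclei were both GABAergic but not matched by interneuron type. Of the 24 adult nuclei, 9 held at least 10 Reln UMIs. Sst is a marker of the E14 list, but 7 adult nuclei with at least 3 Sst UMIs joined no class. This pair had 4 of 5 members at least 2-fold higher in the adult (12.6%) and 0 lower (22.9%). There Grin3a was 284 against 58.1 (4.89-fold, 3.69 to 6.42), Grin2a 1271 against 43.2 (29.4-fold), Grin1 7.88-fold and Grin2d 2.07-fold apart (1.06 to 3.74), and Grin2b 1.53-fold. Without the 1 nucleus with 3 of the 13 adult Grin2d UMIs, Grin2d was 1.68-fold apart (0.774 to 3.24), short of 2-fold. Between adult and E14 thalamic-like nuclei, 3 of 6 members were at least 2-fold higher (14%) and 0 lower (23.4%). Grin2c was 76.4 against 0.739 CPM (103-fold, 39.3 to 386, from 110 and 4 UMIs), Grin2a 15.2-fold and Grin1 5.89-fold apart, whereas Grin3a was 109 against 106 (ratio 1.02, 0.853 to 1.22).

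In the comparisons within a library that follow, Grin1 and Grin2a differed less than between adult and E14 neurons. Adult neurons against adult glia are not among them. There the gap was wide, with Grin2a at 2968 against 64.6 CPM in oligodendrocyte-like nuclei and Grin1 at 409.6 against 18.6. Grin2b, Grin2d and Grin3a each reached a larger fold in at least 1 of the comparisons that follow. E14 neurons over E14 radial glia-like nuclei had 4 of 5 members at least 2-fold higher (13.3% of all genes) and 0 lower (14.8%), with Grin1 4.37-fold, Grin2b 4.16-fold, Grin2a 3.31-fold and Grin3a 2.13-fold apart. Grin2d, at 1.98-fold, was 2.13-fold apart without 1 radial glia-like nucleus with 4 UMIs. For all 5 the radial glia-like levels were not above those of the background classes beyond counting error. Over the background classes, E14 neurons were 2.99-fold higher for Grin1 (2.31 to 3.96), 2.89-fold for Grin2b (2.74 to 3.04), 2.49-fold for Grin2a, 2.22-fold for Grin3a and 1.04-fold for Grin2d (0.855 to 1.27). Adult CA1-like over dentate granule-like nuclei had 0 of 5 members at least 2-fold higher (6.91%) and 1 lower (10.9%), namely Grin2d at 7.44 against 16.5 CPM. Adult inhibitory-like over excitatory neurons had 2 of 6 higher (13.1%) and 1 lower (14%). Grin3a was 284 against 27.7 (10.3-fold, 7.85 to 13.2), Grin2d 49.9 against 20.8 (2.40-fold, 1.26 to 4.18, and 1.94-fold, 0.919 to 3.63, without the nucleus with 3 of its UMIs), and Grin2a 1271 against 3006. Grin2c was not counted in inhibitory-like nuclei, and 110 of its 116 excitatory UMIs were thalamic-like.

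The 24 inhibitory-like nuclei were few and unlike each other. Among the 18 of them with at least 5000 UMIs, Grin2a ran from 0 in 5 nuclei through a median of 562 to 5613 CPM, while Grin2b ran from 314 through 1219 to 3490 with none at 0. A split on the interneuron marker Reln, made after the values were seen, gave 9 nuclei with at least 10 Reln UMIs and 15 with fewer. Grin2a was 1142 and 1400, Grin2b 1341 and 1524, and Grin3a 337 and 231 CPM in these 2 sets. A Grin2a UMI was counted in 9 of the 9 nuclei with at least 10 Reln UMIs and in 7 of the other 15, and the 8 nuclei without Grin2a held at most 1 Reln UMI each. No split was made on other interneuron markers. Nuclei without Grin2a included those with the most Vip (13) and Cck (42) UMIs. The nucleus with most Grin2a, 120 UMIs, held 0 Reln and 7 Lamp5 UMIs. The 2 sets also differed in depth, since every nucleus with at least 10 Reln UMIs had 5510 UMIs or more. Nuclei without Grin2a ran from 780 to 21471 UMIs, and the part of depth in these counts was not tested. Of the 182 Grin2a UMIs in the set with few Reln UMIs, 120 came from the nucleus named above, and without it that set's level was 571 CPM.

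Genes for receptor partners were taken from a fixed list, of which 20 genes are given. In adult over E14 neurons, 7 of 20 were at least 2-fold higher, beside 15.8% of all genes, and 4 lower, close to the 23.9% of all genes, and their median log2 difference was 0.50. Of the postsynaptic scaffold genes, Dlg2 (PSD-93; 4241 against 1407 CPM, 3.01-fold) was higher, while Dlg1, Dlg3, Dlg4 (PSD-95; 117 against 70.1, 1.67-fold), Shank1, Shank2 and Shank3 were within 2-fold. The kinase genes Camk2a (1161 against 80.4, 14.4-fold) and Camk2b (7.84-fold), whose products bind GluN2B, were higher, Src was within 2-fold and Fyn, a tyrosine kinase that acts on GluN2 tails, was 145 against 306. Downstream, Rasgrf1, a calcium-dependent Ras activator, showed the largest fold of the list, 685 against 9.47 CPM (72.3-fold, 63.9 to 82.2), ahead of Grin2a itself, with Rasgrf2 3.88-fold and Nos1 2.22-fold higher. The auxiliary-protein gene Neto1 was 2.75-fold higher.

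**Figure D5:**
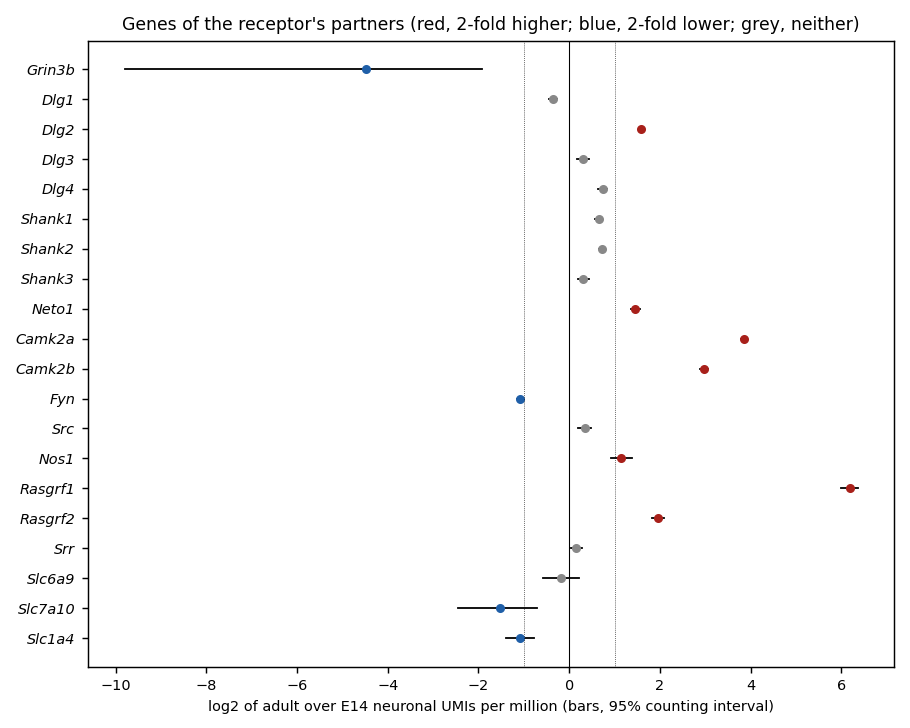
Log2 difference between adult and E14 neuronal levels of 20 partner genes, with 95% counting intervals and dotted lines at 2-fold. Rasgrf1 and Camk2a lie farthest right, most scaffold genes lie within 2-fold, and Fyn, Slc1a4, Slc7a10 and Grin3b lie left of the 2-fold line.

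Of the genes that handle co-agonists, Srr, the serine racemase that makes D-serine, was 77.5 against 69.2 CPM in adult and E14 neurons. Slc7a10, an exchanger of D-serine and other small amino acids, was 205 (175 to 237) in adult astrocyte-like nuclei, the class with the most Grin2c, against 0.544 to 6.34 in the 5 excitatory classes, and was not counted in inhibitory-like nuclei. The glycine transporter gene Slc6a9 was 77.8 (60.8 to 98.1) in oligodendrocyte-like and 36.4 (24.8 to 51.7) in astrocyte-like nuclei, against 6.39 in all adult neurons. Slc1a4, a neutral amino acid transporter gene, was 8.95 in adult against 18.9 in E14 neurons.

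The closer class pairs shared parts of this partner pattern. In CA1-like and cortical excitatory-like against E14 cortical excitatory-like nuclei, 7 of 17 partner genes were at least 2-fold higher (17.7% of all genes) and 4 lower (21.3%, close to the partners' share). In inhibitory-like nuclei 8 of 17 were higher (12.6%) and 2 lower (22.9%), and in thalamic-like nuclei 5 of 17 (14%) and 1 (23.4%). Rasgrf1 (56.5-, 46.5- and 27.5-fold), Camk2a (48.5-, 4.24- and 5.73-fold) and Camk2b (5.49-, 2.71- and 3.36-fold) were higher in each pair. Neto1 was 5.83-fold higher in the first pair and 2.89-fold in the second, but in thalamic-like nuclei it was 20.8 against 51.9 CPM. In CA1-like over dentate granule-like nuclei, 1 of 17 was higher (close to the 6.91% of all genes; Shank1, 291 against 131) and 4 lower (10.9%), among them Rasgrf2 (10.0 against 172) and Neto1 (39.2 against 251), so these partner genes differed between the 2 hippocampal classes more than Grin1, Grin2a or Grin2b, which were 1.23- to 1.44-fold apart. Inhibitory-like over excitatory nuclei had 5 of 18 higher (13.1%), among them Rasgrf2 (407 against 88.0), and 4 lower (14%), among them Camk2a (284 against 1181).

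Likeness of pattern was described by Pearson's r of log2(CPM + 1) over the 26 classes with at least 20 nuclei and 100000 UMIs, 9 adult and 17 E14, among 11130 genes. These values share libraries and depth, and carry no test. Grin1 was most like Rimbp2 (r = 0.947), Grin2a (0.946) and Ptprn (0.940), and Grin2a most like Nsf (0.953), Grin1 and Rasgef1a (0.936). Grin2b was most like Mtus2 (0.962), the synaptic vesicle calcium sensor gene Syt1 (0.933) and Unc13a (0.930), a vesicle priming gene. Grin2c was most like Acsl3 (0.898), Gpr37l1 (0.863) and Aqp4 (0.847), the astrocyte water channel gene used here as an astrocyte marker, but within the 17 E14 classes these r were 0.168, -0.044 and 0.192. Grin2d was most like Tm7sf2 (0.833), Plxnc1 (0.821) and Resp18 (0.818), and Grin3a most like 4930480K15Rik (0.847), Zfp641 (0.825) and Ank1 (0.814). Among the members over all 26 classes, Grin1 with Grin2a (0.95) and with Grin2b (0.82) and Grin2d with Grin3a (0.69) were the most alike, whereas Grin1 with Grin3a gave 0.08. This order depended on pooling the libraries. Grin2a with Grin2b gave 0.67 over all classes, but 0.95 within the adult and 0.80 within the E14 classes. Grin2d with Grin3a gave 0.46 within the adult and 0.88 within the E14 classes.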

How the data were processed

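The authors aligned reads to mm10 with Cell Ranger (6.1.2 for hippocampus and 7.0.1 for E14 in the file headers) including introns. The deposited values are raw UMI counts, with 1 library per tissue. The methods name CellBender correction of background RNA for the embryo, while the E14 file header names Cell Ranger; whether the deposited E14 counts were corrected is not given in the sources used here. Barcodes under 500 UMIs or at 5% or more mitochondrial UMIs were dropped. Classes came from lists of 8 markers (13 adult, 18 E14 lists) by Poisson likelihood over marker UMIs, seeded from nuclei 3-fold enriched for 1 list, with odds of at least 10 and 3 UMIs of 2 markers. Doublets scored highest by Scrublet (21 and 654) were kept, and left out in an alternative. Levels are CPM with exact Poisson intervals, shares have exact Clopper-Pearson intervals, ratios exact conditional binomial intervals, all at 95% and for counting error only. A 0 was set to 3 UMIs in folds. No test was possible with 1 library per tissue. Fold, likeness and drawing code was tested on simulated data. Clusters came from Seurat 5.3.0 (R 4.3.3), the rest from Python 3.11.15. Members, marker lists and partner list were chosen with earlier results of these data known. Named genes were the 6 members, the partner list (apart from 1 gene not reported here) and the 3 genes most like each member, and others were chosen after their values were seen.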

Additional observations from a re-analysis of the deposited data

Results flagged for a closer look

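The same class contrast pointed opposite ways in the 2 libraries for 4 results, with counting intervals off 1 on both sides, and none of these differences was tested, as each library is 1 sample. Thalamic-like over GABAergic interneuron nuclei gave 0.384 for Grin3a in the adult library (inhibitory-like nuclei) and 1.83 at E14 (Lhx6 interneuron-like nuclei), and 0.835 and 1.62 for Grin2a. These inhibitory-like and Lhx6 interneuron-like nuclei were not matched by interneuron type. The adult Grin2a value rests on 1 inhibitory-like nucleus with 120 of 331 UMIs. Without it the adult value was 1.20 (1.04 to 1.4), the same direction as at E14. Oligodendrocyte precursor-like over cortical excitatory-like nuclei gave 0.238 and 1.74 for Grin1, and 0.699 and 1.73 for Grin2a. In the adult precursors 1 nucleus held most of both genes' UMIs, and without it the adult values were 0.0998 and 0.140, while the E14 values rest on 23 and 39 UMIs. Of these, 3 and 13 came from 1 nucleus. Without it the E14 precursor levels were 35.9 in place of 40.1 CPM for Grin1 and 47.0 in place of 68.0 for Grin2a. E14 cortical excitatory-like nuclei held 23.0 and 39.4, or 21.8 and 31.6 without their own top nucleus. Intervals for these E14 values are not given.

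Grin3b, the remaining subunit gene and not a member here, had 128 UMIs in E14 nuclei against 3 in the adult library. Its E14 level was 1.89 CPM (1.4 to 2.48) in neurons and 2.12 (0.916 to 4.18) in the background classes, which did not differ beyond counting error, and the adult to E14 neuronal ratio was 0.0452 (0.00112 to 0.263, from 1 and 51 UMIs). The antisense gene Grin1os had 315 UMIs in adult and 243 in E14 nuclei. It was highest in CA3-like nuclei at 40.5 CPM (27.1 to 58.2, against 28.1 in CA1-like nuclei). The 52 adult barcodes over the mitochondrial limit held 11 Grin2a and 32 Grin2b UMIs.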

How the results depend on the processing

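No paired analysis was possible because each tissue is 1 library and no result comes from a test. The Grin2a to Grin2b ratio stayed above 1 in adult and below 0.1 in E14 neurons under every alternative run. The adult ratio of 1.22 became 1.20 with classes by clusters, 1.15 with neurons by the pan-neuronal list, 1.14 with each nucleus weighted the same and 1.27 with the background level subtracted. The E14 ratio of 0.0590 became 0.0395, 0.0592, 0.0532 and 0.0540 under the same alternatives. With clusters, adult over E14 folds were 9.92 for Grin1, 64.4 for Grin2a and 0.633 for Grin3a. Thresholds of 4-fold gave 1159 genes higher and 1831 lower in adult neurons, in place of 2557 and 3866. Of 457 recomputed class levels, 390 stayed inside the main counting interval, and of 276 folds of other comparisons 258 did. Drawing 2000 in place of 1000 UMIs moved 50 of 64 shares, which rise with depth. Without the nucleus with most UMIs of a gene, 5 of 74 folds crossed the 2-fold limit, namely 4 of Grin2d and 1 of Grin3a. That alternative, background subtraction, levels per run of A and the ratio without the class of the striatal list (0.0572) were chosen after seeing the data. With log2(CPM + 10), 0 to 2 of the 3 most alike genes of each member were kept. No cause of these shifts was tested, and clustering also gave fewer E14 classes. Levels resting on under 10 UMIs, as Grin2c at E14, are limited by depth.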

Other observations

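The 256 adult nuclei in no class, of shallow median depth (1086 UMIs), were not empty of the subunit genes. They held 1264 Grin2a, 1471 Grin2b, 291 Grin1 and 89.0 Grin3a CPM, a Grin2a to Grin2b ratio of 0.859 (0.799 to 0.924). The 10 genes that led this set were the haemoglobin genes Hbb-bs, Hba-a1 and Hbb-bt, the peptide genes Tac1, Sst and Cort, and Ccn2, Gna14, Crhbp and Cplx3. The nuclear RNA Malat1 made up a median of 0.422% of their UMIs, with 168 of the 256 under 1.5%, and the median mitochondrial share was 0.855%. The part of droplets without an intact nucleus in these levels was not tested. Its 7 nuclei with at least 3 Sst UMIs, picked after their values were seen, held 113 Grin2a, 81 Grin2b, 36 Grin1, 32 Grin3a, 5 Grin2d and 0 Grin2c UMIs. Their Grin3a level, 331 CPM, was near the 284 of inhibitory-like nuclei, and their Grin2a to Grin2b ratio was 1.4 against 0.887.

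The 4044 E14 nuclei in no class held 1253 Grin2b (1237 to 1269), 82.2 Grin2a and 104 Grin3a CPM, with a ratio of 0.0656 (0.0623 to 0.0690). Their Grin2b and Grin3a levels were at or above those of the assigned E14 neurons (1165 and 84.1), and Foxb1, Lmx1b, Barhl2, Hcrt and Pmch were among their leading genes. The assigned E14 neurons are therefore a part of the E14 nuclei with high Grin2b.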
